A study of Homo sapiens with 8 samples.

Results

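The genes described here encode nucleoporins, which build the nuclear pore complex, and the transport receptors and Ran regulators that carry cargo through it. They were chosen by gene symbol: NUP followed by a digit, KPN, IPO followed by a digit, XPO or TNPO, plus CSE1L, RAN, RANBP1, RANBP2, RANGAP1, RCC1, TPR, NDC1, RAE1, SEH1L, AAAS and POM121. The rule found 59 of the 18132 genes measured. The measured value used in choosing was the mean signal over all 8 arrays, by which the brightest probe set that the platform annotation assigns to 1 gene stands for that gene. The samples were AGS cells, an established line from a human gastric adenocarcinoma. In 4 samples, podofilox had been present for 72 hours at 3.4 nM, and 4 samples were control cells without it. Podofilox, or podophyllotoxin, comes from plants and stops tubulin from assembling into microtubules. The labels name no solvent for the controls and do not say whether replicates came from separate cultures, so the spread behind each p-value is that among these arrays and may be technical only. All values are deposited log2 signals, differences are podofilox minus control, and errors of means are SDs over 4 arrays.

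The nuclear pore complex is a ring of stacked scaffolds in the nuclear envelope with a channel filled by nucleoporins rich in phenylalanine-glycine repeats. Importins load cargo in the cytoplasm and release it in the nucleus when they bind the GTPase Ran in its GTP form, whereas exportins need Ran-GTP to hold their cargo. The same proteins act in mitosis, when Ran-GTP made at chromosomes frees spindle assembly factors from importins and several nucleoporins sit at kinetochores.

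The arrays behaved alike within groups, with correlations across genes, which are not independent replicates, of 0.997 to 0.999 within a group and 0.995 to 0.997 between groups. The epithelial nature of the labelled cells was borne out by bright signals of the epithelial genes EPCAM (12.95 with podofilox and 12.78 in control cells), KRT8, KRT18 and KRT19. These signals do not identify the line as AGS or as gastric. Of the 6 epithelial genes listed, CLDN4 rose (0.50) and CDH17 fell (-0.33), and their summed log2 signals ran from 76.8 to 77.2 with podofilox against 76.4 to 76.7 in control cells. Of 13 measured markers of other cell types, 1 fell (CDH5 of endothelium, 4.80 ± 0.04 with podofilox and 5.24 ± 0.28 in control cells) and 1 rose (CD68 of macrophages, 7.50 ± 0.05 with podofilox and 7.22 ± 0.13 in control cells). The summed log2 signals of the markers ran from 22.0 to 23.0 with podofilox against 21.7 to 22.6 in control cells for fibroblasts, from 20.8 to 21.2 against 20.4 to 21.0 for immune cells, and from 23.8 to 24.5 against 23.6 to 25.3 for endothelium. The leukocyte marker PTPRC was dim, at 3.49 with podofilox and 3.62 in control cells. The part of these markers in the results was not tested. In RNA from whole cultures, fewer cells of a kind and less RNA per cell cannot be told apart.

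Many genes of the pore and its transport receptors were lower with podofilox, by small amounts, and none was higher past the test. By limma, 24 of 59 (40.7%) fell at a Benjamini-Hochberg adjusted p under 0.05 over all genes, where 12.5% of all genes fell. No member rose (0 of 59, against 8.55% of all genes), and 0 members were higher at an unadjusted p under 0.05, where 15.0% of all genes were. The median difference over the 59 genes was -0.13, beside 0.0069 over all genes. The 24 genes that fell were 1.12-fold to 1.38-fold lower, with a median of 1.18-fold, close in size to the median of 1.19-fold over all 2260 genes that fell. All 4 podofilox values lay below all 4 control values in 33 of the 59 genes (55.9%), which include the 24, and in 15.6% of all genes.

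The nuclear transport genes are bright for the most part. The mean signal of 54 of the 59 lay above the median gene. In a fit restricted to genes above that median, 32 of these 54 (59.3%) fell, against 28.6% of the 9066 genes in it. Differences were below 0 in 46 of 59 members (78.0%), where 47.8% of all genes, bright and dim, were below 0. For genes above the median signal, the shares below 0, higher or with separated groups are not given here. Those contrasts with all genes are therefore not matched for signal.

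The plot of differences by role shows the spread among members. Of 29 measured nucleoporins 13 fell (44.8%), of 24 transport receptors 9 fell (37.5%), and of 4 Ran cycle genes 2 fell (50%). Over all genes, 12.5% fell and 47.8% had differences below 0, the shares to set beside the counts of each role below. A further 2 genes are outside these roles, the pseudogene NUP210P1 and NUP62CL, a relative of NUP62. Both were dim, at 4.23 with podofilox and 4.28 in control cells and at 3.47 with podofilox and 3.39 in control cells, and neither passed the test.

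**Figure D1:**
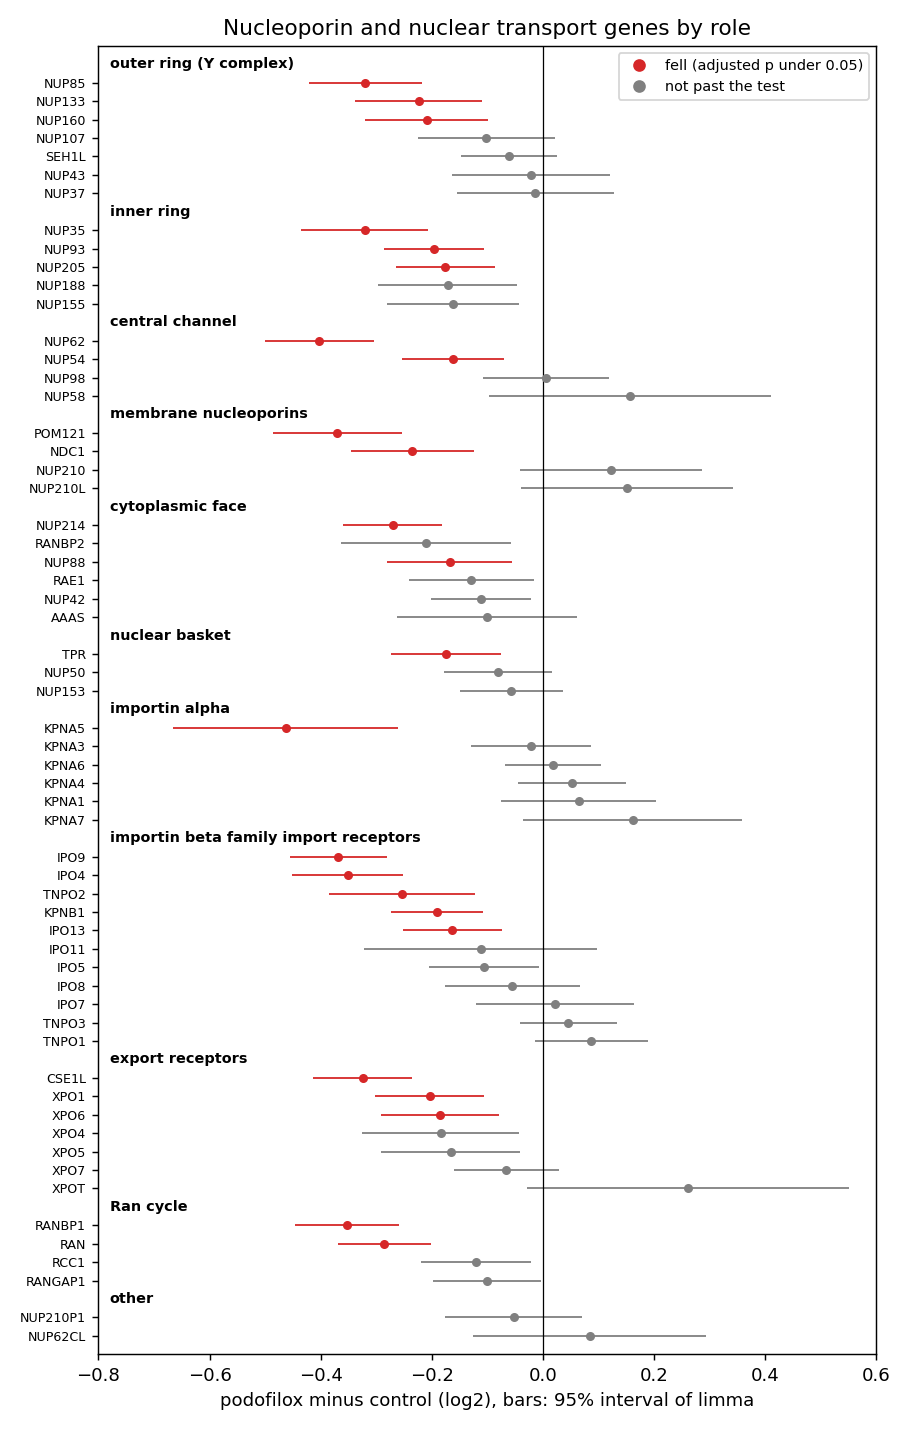
Difference between podofilox and control on the log2 scale (x axis) for each of the 59 genes (y axis, grouped by role); points are limma estimates, bars their 95% intervals, red points fell at an adjusted p under 0.05. The 24 red points lie between -0.46 and -0.16, and no gene passed the test to the right of 0.

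The promoters of 4 genes that fell are shown because 3 of them carry the same short element, the E-box CACGTG to which MYC and MAX, among other factors, can bind. The element, the motifs and the genes shown were chosen after their values were seen. Each line gives the 250 bases before a RefSeq gene start in GRCh38.p14, from 5′ to 3′ on the gene's own strand. RAN lies on the plus strand with this window at chr12:130871816-130872065, IPO4 on the minus strand at chr14:24188817-24189066, XPO1 on the minus strand at chr2:61537088-61537337 for 1 of its 2 listed starts, and NUP62 on the minus strand at chr19:49929505-49929754. Capitals mark the E-box in RAN, IPO4 and XPO1, and in NUP62 the palindrome to which the factor NRF1 can bind.
RAN: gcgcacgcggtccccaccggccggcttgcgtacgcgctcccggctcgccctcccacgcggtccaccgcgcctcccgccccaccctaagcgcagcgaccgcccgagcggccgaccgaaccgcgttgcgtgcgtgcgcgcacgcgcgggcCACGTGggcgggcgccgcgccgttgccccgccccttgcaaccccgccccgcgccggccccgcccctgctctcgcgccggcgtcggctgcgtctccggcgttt
IPO4: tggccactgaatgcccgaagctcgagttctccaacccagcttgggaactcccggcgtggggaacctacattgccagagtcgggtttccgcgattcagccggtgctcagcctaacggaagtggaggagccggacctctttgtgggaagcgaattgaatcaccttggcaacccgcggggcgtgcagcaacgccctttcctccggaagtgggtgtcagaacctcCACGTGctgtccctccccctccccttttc
XPO1: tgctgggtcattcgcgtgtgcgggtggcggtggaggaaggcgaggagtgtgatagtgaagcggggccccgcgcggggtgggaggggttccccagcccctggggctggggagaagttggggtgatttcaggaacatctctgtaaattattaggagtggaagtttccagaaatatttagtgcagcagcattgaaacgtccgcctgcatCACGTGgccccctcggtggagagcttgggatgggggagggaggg
NUP62: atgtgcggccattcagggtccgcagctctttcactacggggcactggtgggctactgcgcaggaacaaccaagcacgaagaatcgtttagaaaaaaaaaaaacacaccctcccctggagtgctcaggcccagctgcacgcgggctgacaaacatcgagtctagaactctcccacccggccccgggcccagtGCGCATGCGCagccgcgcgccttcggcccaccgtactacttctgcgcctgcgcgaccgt

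The E-box begins 102 bases before the start in RAN, 29 in IPO4 and 44 in XPO1, and the palindrome of NUP62 begins 59 bases before its start. RefSeq promoters were found for 51 of the 59 genes, and the motifs were searched on both strands in the 250 bases before each start. CACGTG stood in 9 of these 51 genes (17.6%), beside 9.82% of the 14425 array genes with a promoter and 6.34% of all 35116 promoters. It was present in 4 of the 21 that fell (RAN, IPO4, TNPO2 and XPO1) and in 5 of the 30 not past the test (IPO7, KPNA3, NUP188, NUP50 and RCC1). The NRF1 palindrome stood in 3 of the 51 genes (NUP107, NUP50 and NUP62), of which 1 fell, beside 1.82% of array genes and 1.03% of promoters. The motif CCGGAAGT of ETS factors stood in 8 of 51 (15.7%), beside 6.02% of array genes and 3.42% of promoters. Of these 8, IPO4, NUP160, NUP35, NUP54 and POM121 fell. None of the 3 motifs contains another. A match describes the letters and is not a shown binding site.

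The Ran cycle sets the direction of transport, and the GTPase and its coactivator were lower. RAN, the GTPase itself, had signals of 13.04, 13.05, 13.00 and 13.01 with podofilox, against 13.32, 13.29, 13.32 and 13.31 in control cells. The groups did not overlap, and each spanned far less than the gap between them. The difference was -0.29 (SE 0.04, 95% interval -0.37 to -0.20, adjusted p = 0.000632), a 1.22-fold lower level. RANBP1, which helps RANGAP1 to trigger GTP hydrolysis on Ran, had 11.67, 11.68, 11.57 and 11.61 with podofilox, against 11.95, 12.00, 12.00 and 11.99 in control cells. It was lower on every podofilox array than on any control array, by 0.35 in the mean (difference -0.35, SE 0.04, adjusted p = 0.000378).

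RCC1, the chromatin-bound exchange factor that loads Ran with GTP, averaged 9.45 ± 0.05 with podofilox and 9.57 ± 0.05 in control cells (SD, n = 4 each). Its difference of -0.12 (SE 0.04) did not pass the test (adjusted p = 0.0851). RANGAP1, the GTPase activator at the cytoplasmic face of the pore, averaged 10.18 ± 0.05 with podofilox and 10.29 ± 0.04 in control cells, and its difference of -0.10 did not pass either (adjusted p = 0.139). For both genes the 4 podofilox values lay below the 4 control values, with a gap smaller than the spread within a group. The labels do not say whether arrays 1 and 2 were handled apart from arrays 3 and 4. Splits by these numbers, here and below, describe spread among the arrays only. The difference of RCC1 was -0.050 within arrays numbered 1 and 2 and -0.19 within those numbered 3 and 4. For RANGAP1 it was -0.055 and -0.15 in the same order of arrays.

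RAN and RANBP1 are each read from probe sets of the _s_at and _x_at kinds, which can bind more than 1 transcript. RAN has 3 bright probe sets that all fell (-0.29, -0.22 and -0.23), and RANBP1 has a pair that fell (-0.35 and -0.40). The remaining probe set of each was dim and did not pass the test. That of RAN was at 3.73 with podofilox and 3.56 in control cells, and that of RANBP1 at 6.04 with podofilox and 5.93 in control cells.

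**Figure D2:**
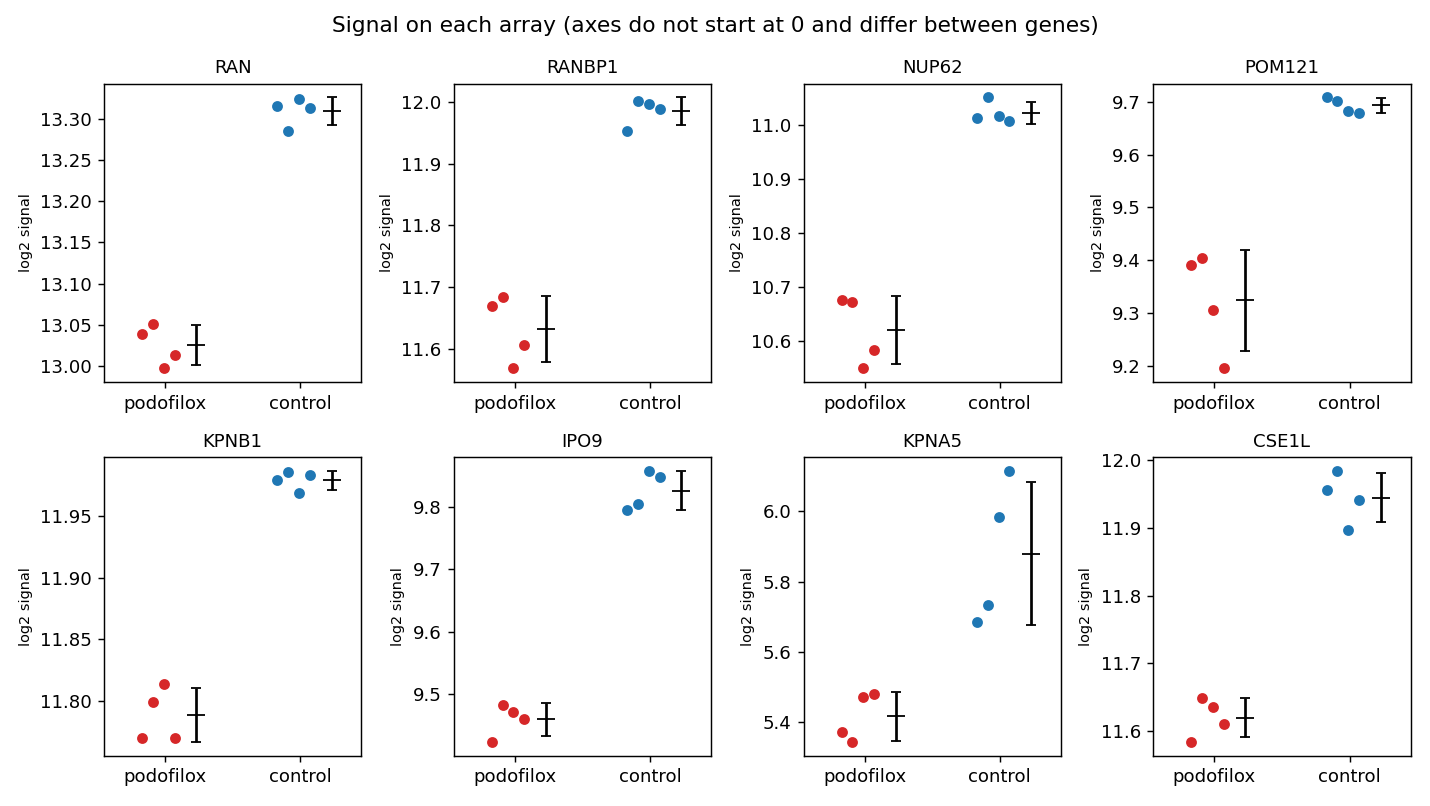
Log2 signal (y axes, which do not start at 0 and differ between genes) of 8 genes on each of the 4 podofilox arrays (red) and 4 control arrays (blue); the black bars give the mean and SD. In each of the 8 genes, every podofilox array lies below every control array. These genes were picked from the members that fell, all of which have separated groups, so the separation is no further check. The same separation held in 33 of the 59 members and in 15.6% of all genes.

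Among scaffold nucleoporins in the symbol rule, all 5 measured inner ring and 7 measured outer ring genes had differences below 0 (brightest probe sets). In the outer ring, or Y complex, which coats both faces of the pore and also binds kinetochores in mitosis, 3 of 7 fell. Outside the rule, SEC13 of the Y complex rose (0.25) and the pore partner AHCTF1 was at 0.014 without passing. NUP85 had 9.32, 9.32, 9.22 and 9.29 with podofilox, against 9.52, 9.64, 9.64 and 9.62 in control cells. Its groups did not overlap, and its difference was -0.32 (SE 0.05, adjusted p = 0.000967). NUP133 (-0.22, adjusted p = 0.012) and NUP160 (-0.21, adjusted p = 0.0142) fell by less. The other probe sets of NUP160 (-0.10, -0.14 and -0.021) did not pass. The others, NUP107 (-0.10), SEH1L (-0.061), NUP43 (-0.021) and NUP37 (-0.014), did not pass the test, although the other probe set of SEH1L fell (-0.28). Of the 7 probe sets of NUP43, only the brightest was below 0, and 2 others rose (0.20 and 0.17).

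The inner ring holds the central channel in place. NUP35, which ties this ring to the membrane, had 8.94, 8.86, 8.72 and 8.87 with podofilox, against 9.15, 9.21, 9.17 and 9.15 in control cells. The podofilox arrays were lower throughout (difference -0.32, SE 0.05, adjusted p = 0.00182), and 2 of its 3 other probe sets fell as well (-0.27 and -0.40). NUP93, a linker of the ring, fell by 0.20 on the log2 scale (adjusted p = 0.00699), and the large scaffold NUP205 fell by 0.18 (adjusted p = 0.0114). The other probe sets of NUP205 (-0.076 and 0.21) did not pass. NUP188 (-0.17, adjusted p = 0.0547) and NUP155 (-0.16, adjusted p = 0.0565) lay just outside the threshold although their groups did not overlap.

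The channel nucleoporins differed from each other. NUP62, whose repeats form part of the permeability barrier, showed the largest fall of any nucleoporin on its brightest probe set. It had 10.67, 10.67, 10.55 and 10.58 with podofilox, against 11.01, 11.05, 11.02 and 11.01 in control cells. The gap between the groups was about as wide on arrays 1 and 2 (-0.36) as on arrays 3 and 4 (-0.45), and the difference was -0.40 (SE 0.04, 95% interval -0.50 to -0.30, adjusted p = 0.000243), 1.32-fold lower. Its 3 other probe sets fell too (-0.25, -0.33 and -0.30).

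NUP54, a partner of NUP62 in the channel, was at 10.31 ± 0.04 with podofilox and 10.47 ± 0.04 in control cells (difference -0.16, SE 0.04, adjusted p = 0.0194). NUP58, the remaining subunit of that complex, had 8.65, 8.66, 9.18 and 8.82 with podofilox, against 8.74, 8.79, 8.51 and 8.64 in control cells. These groups overlapped and the test was not passed (0.16, adjusted p = 0.376). Arrays 1 and 2 alone gave -0.11, whereas arrays 3 and 4 alone gave 0.43, a split for which the labels give no basis. NUP98, which also binds mRNA export factors, did not pass on its brightest probe set, at 8.85 ± 0.09 with podofilox and 8.84 ± 0.03 in control cells. A dimmer probe set of NUP98 fell clearly, with 6.96, 7.03, 6.80 and 6.80 with podofilox, against 7.61, 7.52, 7.36 and 7.38 in control cells (difference -0.57, adjusted p = 0.000655 over all probe sets). Which NUP98 transcripts the probe sets read is not given in the sources used here.

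Of the membrane nucleoporins, which anchor the pore in the envelope, POM121 and NDC1 fell. POM121 had 9.39, 9.40, 9.31 and 9.19 with podofilox, against 9.71, 9.70, 9.68 and 9.68 in control cells. The control arrays were close together and all above the podofilox arrays (difference -0.37, SE 0.05, adjusted p = 0.0009). POM121 has 1 single-gene probe set and a near-identical copy, POM121C, so the signal of this probe set may mix both. NDC1 was at 9.04 ± 0.07 with podofilox and 9.28 ± 0.05 in control cells (difference -0.24, adjusted p = 0.0079). Its 2 other probe sets, at -0.016 and -0.12, did not pass, and the first of these was almost as bright (9.15 with podofilox and 9.16 in control cells). NUP210 (5.21 with podofilox and 5.09 in control cells) and NUP210L (3.58 with podofilox and 3.43 in control cells) were dim and did not pass.

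On the cytoplasmic face, all 6 measured genes had differences below 0 and 2 fell. NUP214, a filament protein where export complexes are taken apart, had 7.41, 7.46, 7.38 and 7.42 with podofilox, against 7.65, 7.73, 7.69 and 7.69 in control cells. Its groups were well apart (difference -0.27, SE 0.04, adjusted p = 0.00113). NUP88, its partner, was at 8.39 ± 0.09 with podofilox and 8.56 ± 0.03 in control cells (difference -0.17, adjusted p = 0.0403), the member closest to the threshold on the inner side. In the fit over all probe sets, the same NUP88 probe set did not pass (adjusted p = 0.0512). Another probe set of NUP88 fell (-0.16), and those at -0.015, 0.056 and 0.023 did not pass. RANBP2, a large filament protein with SUMO ligase activity, lay closest to the threshold on the outer side (-0.21, SE 0.07, adjusted p = 0.0542).

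RANBP2 had 10.02, 10.03, 10.32 and 10.06 with podofilox, against 10.34, 10.37, 10.26 and 10.29 in control cells. Podofilox array 3 lay within the control range while the other three lay below it, and 2 of its 3 other probe sets fell (-0.26 and -0.18). RAE1 (-0.13), NUP42 (-0.11) and AAAS (-0.10) did not pass, although 1 of the 4 other probe sets of NUP42 fell (-0.18, adjusted p = 0.0208 over all probe sets). At the nuclear basket, which faces the chromatin, TPR fell by 0.17 (10.85 ± 0.04 with podofilox and 11.03 ± 0.06 in control cells, adjusted p = 0.0191). The other probe sets of TPR, from -0.15 to 0.19, did not pass. NUP50 (-0.081) and NUP153 (-0.056) did not pass on their brightest probe sets, and 1 of the 6 other probe sets of NUP50 fell (-0.24).

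Importin alpha proteins are the adaptors that recognise the classical nuclear localisation signal. Of 6 measured, 1 fell (16.7%), near the 12.5% of all genes. Differences were below 0 in 2 of the 6 (33.3%), beside 47.8% of all genes. The gene that fell, KPNA5, had the largest decline of all members and was dim, with 5.37, 5.34, 5.47 and 5.48 with podofilox, against 5.69, 5.73, 5.98 and 6.12 in control cells. The groups did not overlap, but the control arrays were spread, with arrays 3 and 4 above arrays 1 and 2 (difference -0.46, SE 0.09, 95% interval -0.67 to -0.26, adjusted p = 0.00542). KPNA5 has 1 probe set, so no second reading exists here.

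The remaining importin alpha genes had small differences on their brightest probe sets, with differences of -0.021 (KPNA3), 0.019 (KPNA6), 0.053 (KPNA4), 0.065 (KPNA1) and 0.16 (KPNA7), none past the test. Their 95% intervals bound the change. For KPNA6 the interval ran from -0.068 to 0.11 and for KPNA4 from -0.044 to 0.15, so a fall as large as that of RAN lies outside both. KPNA1 had 4 other probe sets, of which 1 fell (-0.17, adjusted p = 0.0349 over all probe sets). KPNA2 has no probe set of its own in the annotation used here and is not among the 59.

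Import receptors of the importin beta family carry cargo themselves or through importin alpha, and 5 of 11 fell. IPO9, which imports histones and actin, had 9.42, 9.48, 9.47 and 9.46 with podofilox, against 9.80, 9.80, 9.86 and 9.85 in control cells. The values of each group lay close together and far from the other group (difference -0.37, SE 0.04, adjusted p = 0.000206), yet its 3 dimmer probe sets were at -0.025, 0.045 and 0.0083 and did not pass. IPO4, which also imports histones, had 8.25, 8.17, 8.10 and 8.19 with podofilox, against 8.54, 8.51, 8.56 and 8.50 in control cells. It was lower on all 4 podofilox arrays (difference -0.35, SE 0.04, adjusted p = 0.00052).

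KPNB1, importin beta itself, had 11.77, 11.80, 11.81 and 11.77 with podofilox, against 11.98, 11.99, 11.97 and 11.98 in control cells. The shift was small but several times the spread within either group (difference -0.19, SE 0.04, adjusted p = 0.0051). Of its 4 other probe sets, 2 fell (-0.20 and -0.26), 1 was at -0.23 without passing, and 1 rose (0.22, adjusted p = 0.0181 over all probe sets). TNPO2, a carrier of RNA-binding proteins, fell by 0.25 (adjusted p = 0.0125), and IPO13, which works in both directions, fell by 0.16 (adjusted p = 0.0171).

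TNPO1, a close relative of TNPO2, was at 10.20 ± 0.01 with podofilox and 10.11 ± 0.07 in control cells. It was the member whose 4 podofilox values all lay above the 4 control values, yet the difference of 0.087 did not pass (adjusted p = 0.215), although another probe set rose (0.20). TNPO3, a carrier of splicing factors, was at 0.046 and did not pass. IPO7, which imports ribosomal proteins, was at 11.20 ± 0.11 with podofilox and 11.18 ± 0.08 in control cells, and 1 of its 3 other probe sets rose (0.41, adjusted p = 0.0352 over all probe sets). IPO11 (-0.11), IPO5 (-0.11) and IPO8 (-0.055) did not pass.

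Among export receptors, 3 of 7 fell. CSE1L, which returns importin alpha to the cytoplasm, had 11.58, 11.65, 11.64 and 11.61 with podofilox, against 11.96, 11.98, 11.90 and 11.94 in control cells. The groups were apart by more than the range of either (difference -0.32, SE 0.04, adjusted p = 0.000437). XPO1, the main exporter of proteins with a leucine-rich signal, had 10.54, 10.46, 10.44 and 10.41 with podofilox, against 10.63, 10.67, 10.70 and 10.66 in control cells. All podofilox values were lower (difference -0.20, SE 0.04, adjusted p = 0.00869), and 2 of its 3 other probe sets fell (-0.26 and -0.23).

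XPO6, the exporter of actin with profilin, fell by 0.19 (adjusted p = 0.0207). XPO4 (-0.18, adjusted p = 0.0671) and XPO5, the exporter of microRNA precursors (-0.17, adjusted p = 0.0625), lay near the threshold, and the other probe set of XPO5 fell (-0.23). XPO7 was at -0.065 and did not pass. XPOT, the tRNA exporter, had 10.35, 10.49, 10.98 and 10.68 with podofilox, against 10.45, 10.53, 10.13 and 10.35 in control cells. Its groups overlapped, its difference of 0.26 (SE 0.13, 95% interval -0.029 to 0.55) did not pass (adjusted p = 0.194). Arrays 1 and 2 alone gave -0.069, whereas arrays 3 and 4 alone gave 0.59, a split for which the labels give no basis.

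In all 24 genes that fell, every podofilox value lay below every control value, as in 15.6% of all genes. The call and this separation come from the same 8 arrays, so the separation is no further check. Its share among all genes that fell was not counted. Differences below 0 within arrays 1 and 2 and within arrays 3 and 4 follow from the separation and are no further check either. Leaving out any 1 array kept the call of 19 of the 24. NUP88 lost its call in 6 of the 8 such fits, and kept it only without podofilox replicate 1 or without podofilox replicate 2 (adjusted p up to 0.109). That of IPO13 ended without podofilox replicate 2 or control replicate 4 (adjusted p up to 0.0654), and that of NUP54 without podofilox replicate 4 (adjusted p = 0.0603). The calls of TPR (adjusted p = 0.0624) and XPO6 (adjusted p = 0.0708) ended without control replicate 4.

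Every probe set was also read, rather than the brightest alone, as shown in the plot of probe sets. The 59 genes have 171 single-gene probe sets, of which 52 fell and 5 rose, when fitted and adjusted over all 44988 single-gene probe sets, of which 10.2% fell and 7.83% rose. Among the 112 probe sets that were not the brightest of their gene, and so were not used to represent it, 29 fell, 5 rose and 78 had differences below 0. The share of all probe sets below 0 was not counted. Of the 112, 49 belong to genes that fell, and 21 of these fell and 1 rose. The other 63 belong to genes not past the test. Of these 8 fell and 4 rose, near the shares of all probe sets. Of the 24 genes that fell, 18 have another probe set, and in 13 of these at least 1 other fell. The 5 probe sets that rose belong to KPNB1, IPO7, TNPO1 and NUP43, the last with 2 of its 6 dimmer ones (0.20 and 0.17). Taking the mean of the probe sets of a gene ended the calls of 5 genes that fell, IPO9 (-0.085, adjusted p = 0.112), NUP160 (-0.12, adjusted p = 0.0741), NUP88 (-0.052), TPR (-0.031) and NUP205 (-0.013). Probe sets of 1 gene share the same arrays and RNA and are not independent samples.

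**Figure D3:**
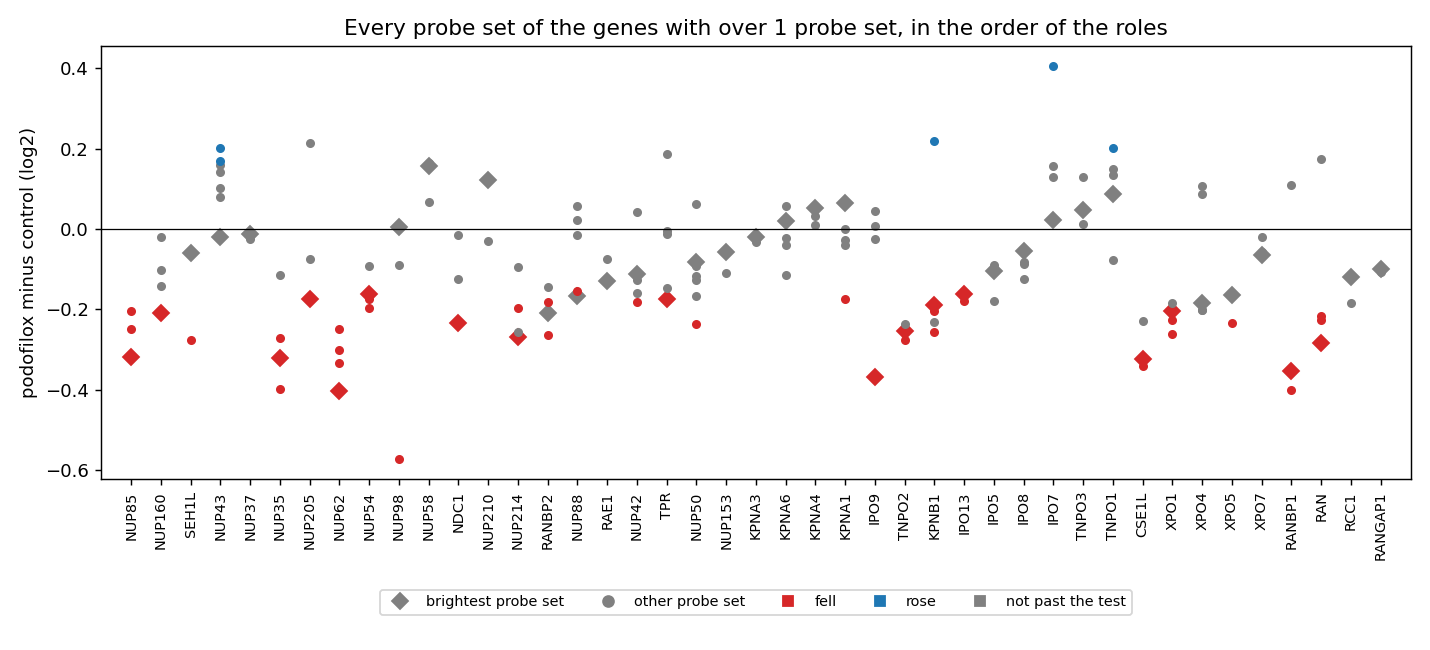
Difference between podofilox and control on the log2 scale (y axis) for each probe set of the 43 genes with more than 1 (x axis, in the order of the roles); diamonds mark the brightest probe set, circles the others, red those that fell and blue those that rose. NUP62, NUP35, NUP85, CSE1L, XPO1 and RAN hold several red points each, while IPO9 and NDC1 hold 1 and NUP43 and IPO7 lie mostly above 0.

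Genes that work with the pore but lie outside the symbol rule were counted from lists of other pore and Ran partners and of mRNA export. Of 12 measured pore and Ran partners, 2 fell and 1 rose, with a median difference of -0.037. These counts lie near the shares of all genes, of which 12.5% fell and 8.55% rose. RANBP3, a cofactor of XPO1, was at 8.34 ± 0.04 with podofilox and 8.60 ± 0.04 in control cells (difference -0.26, adjusted p = 0.00212). SNUPN, the import adaptor of spliceosomal particles, fell by 0.17 (adjusted p = 0.0243), and HIKESHI, a carrier of heat shock protein, did not pass (-0.15). The gene that rose, SEC13, belongs both to the Y complex and to the coat of vesicles leaving the endoplasmic reticulum. It had 11.66, 11.69, 11.65 and 11.62 with podofilox, against 11.40, 11.45, 11.37 and 11.41 in control cells (difference 0.25, SE 0.04, adjusted p = 0.00201). The direction of SEC13 was thus opposite to that of the Y complex members that fell, on an _x_at probe set, and a SEC13 probe set of neither the _x_at nor the _s_at kind was at -0.080 and did not pass.

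Of 21 measured mRNA export genes, 7 fell and 1 rose, with a median of -0.086. NCBP1, the larger subunit of the nuclear cap-binding complex, had 8.40, 8.40, 8.51 and 8.46 with podofilox, against 8.76, 8.92, 8.93 and 8.93 in control cells. All podofilox arrays were lower (difference -0.44, SE 0.05, adjusted p = 0.000368). The helicase DDX39A changed by -0.40 (adjusted p = 0.000363), the export adaptor ALYREF by -0.32 (adjusted p = 0.000982) and MCM3AP, the scaffold of the export complex TREX-2, by -0.30 (adjusted p = 0.00327). Over both lists 9 of 33 fell and 2 rose, beside 12.5% and 8.55% of all genes.

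**Figure D4:**
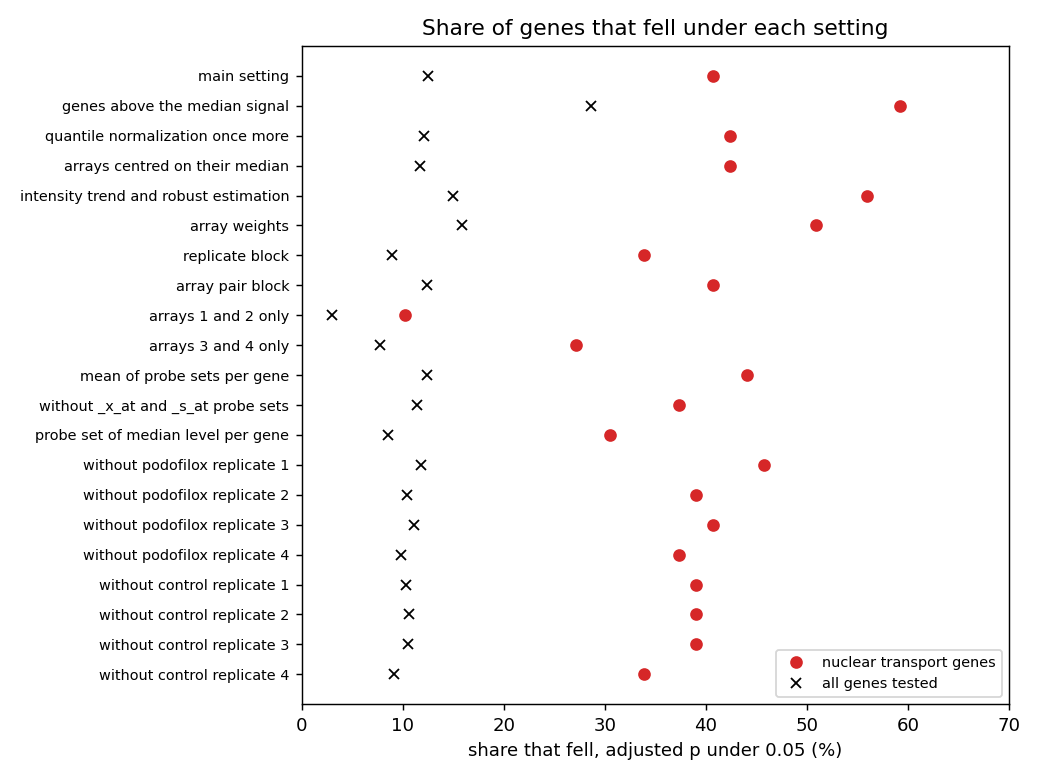
Share of genes that fell at an adjusted p under 0.05 (x axis, percent) under each processing setting (y axis); red circles are the nuclear transport genes, black crosses all genes tested in that setting. The circle lies right of the cross in each of the 21 settings, at 40.7% against 12.5% in the main setting and lowest with arrays 1 and 2 only, at 10.2% against 2.99%.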

How the data were processed

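Messenger RNA was measured on 8 Affymetrix arrays, 4 of cells with podofilox and 4 of control cells. The deposited log2 values, 1 per probe set and array, were made by the authors with RMA, per the submitters' processing notes, a step that equalises the arrays and so hides any change in total mRNA per cell. The sources used here do not give its software or options. The table carries no detection calls. Precision is set by how many arrays there are.

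Probe sets were named from the platform annotation, manufacturer controls and probe sets of several genes were left out, and the brightest of a gene's 44988 single-gene probe sets in all represented it. Group differences over 18132 genes were fitted with lmFit and eBayes of limma (version 3.58.1, under R version 4.3.3, two-sided, Benjamini-Hochberg over all genes, threshold 0.05), which was tested on simulated data. A gene that passed is said to have fallen or risen. All probe sets were fitted in the same way. Plots were made in Python 3.11.15 (matplotlib 3.10.9).

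Values of each array were given for the 5 largest falls, and for further members and partners picked after their values were seen. Names were given to up to 4 called members of each role and to the Ran cycle genes. Members with a called probe set of opposite sign and 4 genes of each partner list were named too. Other members were named to complete their role, a choice made after their values were seen. The members, lists and alternatives were chosen with earlier results of these data known. The alternatives were other filters, normalizations, variance models, blocks, probe set rules and leaving out arrays.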

Additional observations from a re-analysis of the deposited data

Results flagged for a closer look

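Among 134 groups of 4 arrays, from the 59 nuclear transport genes and 8 named partner genes, 7 held an array whose gap to its nearest neighbour was an unusually large share of the group's range. Chance alone marks about 1 in 20 groups, so this number is near what chance gives. Control replicate 2 stood apart in 3 genes, highest in NUP155 (8.84, the others 8.68 to 8.70, share 0.895) and NUP37 (9.59, the others 9.47 to 9.48, share 0.937) and lowest in KPNA7 (6.81, the others 7.04 to 7.07, share 0.856). Control replicate 1 was highest in the dim NUP210P1 (4.34, the others 4.26 each, share 0.948) and lowest in NCBP1 (8.76, the others 8.92 to 8.93, share 0.940). Podofilox replicate 4 was highest in the dim NUP210L (3.80, the others 3.48 to 3.53, share 0.840). Podofilox replicate 3 was highest in RANBP2 (10.32, the others 10.02 to 10.06, share 0.866), the member nearest to the threshold from outside.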

How the results depend on the processing

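The number of nuclear transport genes that fell was 24, and 18 to 33 under the alternatives that used at least 7 arrays. With arrays 1 and 2 only it was 6, and with arrays 3 and 4 only 16, fits that use fewer samples. Of the 24, only CSE1L, NUP62, POM121 and KPNA5 kept their call in every alternative that included them, these smaller fits among them. All genes called came to 3810, but to 1010 with arrays 1 and 2 only and 2300 with arrays 3 and 4 only. The number of members that rose, 0, became 1 with arrays 3 and 4 only (XPOT), with probe sets averaged per gene and without _x_at and _s_at probe sets (IPO7 in both), and with the probe set of median level (NUP43). Leaving out each array in turn gave 20 to 27 members that fell, 0 that rose, median differences of -0.15 to -0.11, 2706 to 3590 genes called, 7 to 9 partner genes that fell and 1 to 3 that rose. Partner genes that fell (9) came to 3 with arrays 1 and 2 only and 5 with arrays 3 and 4 only. Partner genes that rose (2) came to 5 with array weights, 4 with the mean of probe sets, 0 with arrays 1 and 2 only, and 1 with the replicate block, with arrays 3 and 4 only, without _x_at and _s_at probe sets and with the probe set of median level.

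With the replicate number as a block, 20 members fell. Same-numbered arrays did not deviate together (correlations of deviations from the group means of -0.13, 0.089, -0.24 and 0.061 for numbers 1 to 4), so no pairing by number was seen. Podofilox replicate 1 and control replicate 3 gave 0.24, so these values cannot settle whether the numbers pair the samples.

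Other directions turned with the choice of probe set, where other probes are read. IPO9 was at 0.045 on the probe set of median level. Without _x_at and _s_at probe sets, RAN was at 0.17, RANBP1 at 0.11, SEC13 at -0.080 and HIKESHI at 0.14, the value of HIKESHI also on the probe set of median level, where RANBP3 was at 0.056. KPNA1 was at -0.17 on the probe set of median level, -0.036 with the mean of probe sets and -0.055 with arrays 3 and 4 only. NUP43 was at 0.20 on the probe set of median level, 0.16 without _x_at and _s_at probe sets, 0.12 with the mean of probe sets, 0.075 with arrays 3 and 4 only and 0.00095 with array weights, and leaving out each array in turn gave -0.060 to 0.034, above 0 without podofilox replicate 1 or control replicate 2. NUP98 was at -0.22 with the mean of probe sets, -0.089 on the probe set of median level and -0.038 with arrays 3 and 4 only, and leaving out each array in turn gave -0.018 to 0.049, below 0 without podofilox replicate 1, 2 or 4 or control replicate 4. The causes were not tested. The table holds no background measure, so how far dim genes such as KPNA5 and NUP210L lie above background was not tested.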

Other observations

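Probe sets that the annotation assigns to several genes also cover members and stayed out of the counts. KPNA2, the importin alpha with no single-gene probe set here, shares one with the pseudogene ARHGAP27P1. It had 11.93, 11.94, 11.98 and 11.93 with podofilox, against 12.08, 12.03, 12.01 and 12.04 in control cells, a difference of -0.10 that did not pass (adjusted p = 0.144 over all annotated probe sets). Of the 3 probe sets shared by POM121 and POM121C alone, the brightest fell (10.48 with podofilox and 10.79 in control cells, difference -0.31, adjusted p = 0.00138), as did another (-0.28, adjusted p = 0.00313), while the third did not pass (-0.17, adjusted p = 0.0974). A further 2 that these genes share with another gene did not pass either (-0.17, adjusted p = 0.0931, and 0.032, adjusted p = 0.753).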
